A study of Rattus norvegicus with 8 samples.

Results

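The genes described here encode 8 subunits of the voltage-gated sodium channel: the auxiliary subunits *Scn4b*, *Scn2b* and *Scn3b* and the pore-forming subunits *Scn1a*, *Scn2a*, *Scn3a*, *Scn8a* and *Scn9a*. They are 8 of the 15159 named genes on the array, and all 8 had a probe. *Scn4b* was chosen for its measured fall after RA on every array, and the others were taken as its relatives with results of these data already known. Their RA over vehicle values are therefore given as a description, with no test. Male F344N rats kept on a SD photoperiod received RA or vehicle by injection into the third ventricle, 5 μl per rat, and the hypothalamus was collected 24 hrs later. The labels give RA at 1e-05 M and name saline as the vehicle, whereas the methods of the study give a higher RA concentration and DMSO in saline. RNA of 4 RA-injected and 4 vehicle-injected rats was compared with dye-swap on 8 two-colour Agilent arrays of 1 slide. RA was labelled with Cy5 on arrays 1, 3, 6 and 8 and with Cy3 on arrays 2, 4, 5 and 7, and arrays 1 to 4 and 5 to 8 formed the rows of the slide. With 4 rats per group and dye-swap, the 8 arrays are not 8 independent pairs of animals. The labels do not say which arrays carry RNA of the same rats. *Ttr* log2 ratios of RA over vehicle were 1.76 and 1.74 on arrays 1 and 2, and 0.73 and 0.57 on 3 and 4. On arrays 5 and 8 they were 1.21 and 1.37, and on arrays 6 and 7 -4.48 and -5.11. *Agrp* was at -1.11 and -1.04 on arrays 5 and 8 and between -0.09 and 0.05 on the others. Whether arrays with like values share RNA was not tested, and both genes were named after their values were seen. The tissue was a block that holds many cell types.

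Voltage-gated sodium channels open when the membrane depolarises and carry the inward current of the action potential. The pore is formed by a large alpha subunit, and small beta subunits with an immunoglobulin-like domain tune its gating and its placement in the membrane. Channels are densest at the axon initial segment and at nodes of Ranvier, where the scaffold protein ankyrin G holds them. In the hypothalamus they set the firing of neurones that release hormones and of those that control feeding.

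*Scn4b* and *Scn2b* lie next to each other on rat chromosome 8, and *Scn3a* with *Scn2a* and *Scn1a* with *Scn9a* are neighbouring pairs on chromosome 3. RA acts through nuclear receptors that bind repeats of the half-site AGGTCA. The 250 bases before the annotated start were therefore searched on both strands for AGGTCA, for 2 copies of it in the same direction 5 bases apart, for the GC box GGGCGG and for TATAAA. The sequences come from RefSeq on GRCr8, which held an entry for 6 of the 8 genes, all but *Scn3b* and *Scn1a*. Those of the neighbours *Scn4b* and *Scn2b* are shown because their ratios differed, and that of *Scn9a* because it was the entry with an AGGTCA, in capitals.
Scn4b (GRCr8 chr8:54343623-54343872, plus strand): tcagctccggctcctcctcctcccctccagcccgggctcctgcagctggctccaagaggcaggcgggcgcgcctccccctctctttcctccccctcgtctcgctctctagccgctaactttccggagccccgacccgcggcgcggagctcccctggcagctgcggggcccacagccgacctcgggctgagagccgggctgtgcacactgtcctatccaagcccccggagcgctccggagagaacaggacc
Scn2b (GRCr8 chr8:54322133-54322382, plus strand): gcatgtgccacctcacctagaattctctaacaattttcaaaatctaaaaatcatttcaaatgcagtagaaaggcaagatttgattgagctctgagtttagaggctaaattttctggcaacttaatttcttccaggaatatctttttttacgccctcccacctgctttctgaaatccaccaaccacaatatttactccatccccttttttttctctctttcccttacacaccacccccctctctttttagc
Scn9a (GRCr8 chr3:71701378-71701627, minus strand): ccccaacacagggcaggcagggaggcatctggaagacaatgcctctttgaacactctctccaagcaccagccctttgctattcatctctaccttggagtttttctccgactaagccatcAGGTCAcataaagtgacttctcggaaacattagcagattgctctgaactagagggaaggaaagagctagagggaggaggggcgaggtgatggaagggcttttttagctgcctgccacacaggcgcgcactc
The bases before *Scn4b* were rich in G and C (71.6%, higher than in 93.6% of 33469 rat promoters), whereas those before its neighbour *Scn2b* were poor in them (38.8%, higher than in 11.3%). None of the motifs was found in these windows of *Scn4b* and *Scn2b*, which says only that the letters are not there. Of all promoters, 14.1% held AGGTCA, 30.5% GGGCGG, 12.9% TATAAA and 0.00896% the repeat. Among the other members *Scn8a* held 6 GC boxes in a window of 86% G and C, and *Scn2a* (39.6%) and *Scn3a* (41.6%) held no motif.

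Ratios are given on the log2 scale as RA over vehicle after loess normalisation, where a value below 0 means a lower level after RA and -1 a 2-fold lower one. *Scn4b* encodes the beta subunit whose cytoplasmic tail is known for resurgent sodium current in neurones that fire fast. Its log2 ratio was -0.83 on array 1, -0.34 on array 3, -0.56 on array 6 and -0.05 on array 8, where RA was in Cy5. With RA in Cy3 it was -1.07 on array 2, -0.39 on array 4, -0.06 on array 5 and -0.74 on array 7. All 8 values lay below 0, those on arrays 5 and 8 close to it and that on array 2 beyond -1. By the pairs of arrays in which *Ttr* was alike, they were -0.83 and -1.07, -0.34 and -0.39, -0.06 and -0.05, and -0.56 and -0.74. The 8 arrays are not 8 independent values. The mean log2 ratio was -0.51 ± 0.36 (SD, n = 8 arrays; SE 0.13), which is 1.42-fold lower after RA. Here and below, the SE is that of the limma fit on 4 means of pairs of arrays and does not follow from the SD of 8 arrays. The dye orders gave like means, -0.45 for RA in Cy5 and -0.56 for the reverse order. The mean was -0.66 on the first row of the slide and -0.35 on the second, and it lay between -0.66 (without arrays 8 and 5) and -0.36 (without arrays 1 and 2) when an array of each dye order was left out.

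**Figure D1:**
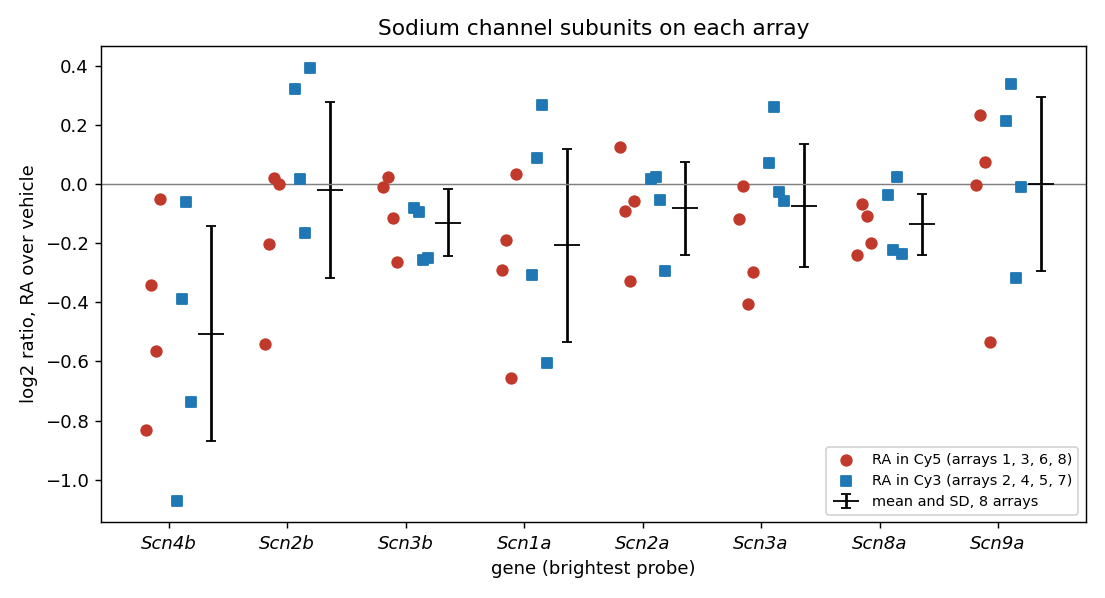
Log2 ratio, RA over vehicle (vertical axis), for the brightest probe of each sodium channel subunit (horizontal axis). Each point is 1 array, circles have RA in Cy5 and squares RA in Cy3, and the bar gives the mean and SD of 8 arrays. All 8 points of Scn4b lie below 0, between -1.07 and -0.05, whereas the points of every other subunit lie on both sides of 0.

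The normalised log2 intensity of *Scn4b* was 10.23 ± 0.29 in RA RNA (SD, n = 8 arrays) and 10.74 ± 0.38 in vehicle RNA. RA values ran from 9.96 to 10.78 and vehicle values from 10.03 to 11.27, so the groups overlapped although RA was the lower on each array. With no scaling between arrays, the vehicle level was highest on array 2 and lowest on array 5, whereas the RA level was highest on array 8 and lowest on array 5. The probe, A_42_P674843, was well above background in both channels on all 8 arrays and was saturated on none. It was spotted 10 times per array, and of 75 spots kept over the 8 arrays 72 (96%) had a log2 ratio below 0. The other 3 were on arrays 5 and 8. The SD between spots of 1 array was at most 0.106, smaller than the SD of 0.36 between arrays. In a tissue block, fewer cells of a type and less RNA per cell cannot be told apart.

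**Figure D2:**
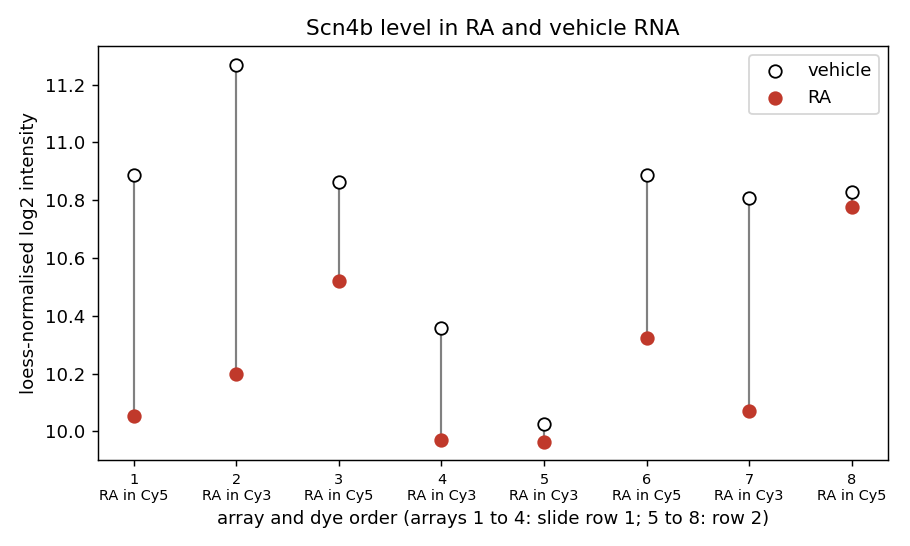
Loess-normalised log2 intensity of Scn4b (vertical axis, not starting at 0) in RA RNA (filled) and vehicle RNA (open) on each of the 8 arrays (horizontal axis, with the dye order). The line joining the points of an array is the log2 ratio, which was longest on array 2 (-1.07) and shortest on arrays 5 (-0.06) and 8 (-0.05).

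The other auxiliary subunits had smaller mean ratios. *Scn2b*, which like *Scn4b* is joined to the alpha subunit by a disulphide bond, had a mean log2 ratio of -0.02 ± 0.30 (SD, n = 8 arrays; SE 0.09), with a lowest value of -0.54, a median of 0.01 and a highest of 0.39. Its ratio was below 0 on 3 arrays and above 0 on 5, and its sign moved with the dye, at -0.18 where RA carried Cy5 and 0.14 where it carried Cy3. The *Scn2b* probe was dim. Its log2 level was 7.01 ± 0.25 in RA RNA and 7.03 ± 0.24 in vehicle RNA, it was well above background on 7 of 8 arrays for RA, and its 2 spots differed with an SD of up to 0.662 on 1 array. *Scn3b*, a beta subunit that binds the channel without a covalent bond, had a mean log2 ratio of -0.13 ± 0.11 (SE 0.06), from -0.26 through a median of -0.10 to 0.02. Its levels were 13.32 ± 0.27 after RA and 13.45 ± 0.23 after vehicle, and overlapped. *Scn3b* was below 0 on 7 of 8 arrays, with a mean ratio of -0.04 on the first row of the slide and -0.22 on the second.

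Among the pore-forming subunits the lowest mean was that of *Scn1a*, the main channel of many inhibitory interneurones. Its log2 ratio was -0.29, -0.31, -0.19 and 0.09 on arrays 1 to 4 and 0.27, -0.65, -0.61 and 0.03 on arrays 5 to 8. The mean was -0.21 ± 0.33 (SD, n = 8 arrays; SE 0.12), and the ratio was below 0 on 5 arrays. Without arrays 6 and 7 its mean was -0.07, and without arrays 8 and 5 it was -0.33. Its SD exceeded the size of its mean, and its vehicle level (11.00 ± 0.44) overlapped that after RA (10.79 ± 0.21). *Scn8a*, the chief channel of the mature axon initial segment and of nodes, had a mean log2 ratio of -0.14 ± 0.10 (SE 0.05), from -0.24 through a median of -0.15 to 0.02. It was below 0 on 7 arrays, with like means on the rows of the slide (-0.14 and -0.13) and in both dye orders (-0.15 for RA in Cy5 and -0.12 for the reverse). The log2 level of *Scn8a* was 8.15 ± 0.38 in RA RNA and 8.29 ± 0.42 in vehicle RNA.

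*Scn2a*, a channel of excitatory neurones and unmyelinated axons, had a mean log2 ratio of -0.08 ± 0.16 (SE 0.07), from -0.33 through a median of -0.06 to 0.13, and *Scn2a* was below 0 on 5 arrays. *Scn3a*, which is most abundant in the developing brain, had a mean of -0.07 ± 0.21 (SE 0.07), from -0.41 through -0.04 to 0.26, and was below 0 on 6. The mean of *Scn3a* was -0.21 for RA in Cy5 and 0.06 for the reverse order, so its sign turned with the dye. *Scn9a*, best known from pain-sensing neurones, had a mean of -3.15e-04 with an SD of 0.29 (SE 0.11), from -0.53 through 0.04 to 0.34, with 4 arrays on each side of 0. *Scn9a* was above 0 on the first row of the slide (0.20) and below 0 on the second (-0.20). *Scn2a* and *Scn3a* also had lower means on the second row, -0.18 and -0.20, against 0.02 and 0.05 on the first. Levels of these genes overlapped between RA and vehicle RNA, at 11.46 ± 0.38 and 11.54 ± 0.42 for *Scn2a*, 9.96 ± 0.34 and 10.03 ± 0.42 for *Scn3a*, and 8.71 ± 0.42 and 8.71 ± 0.31 for *Scn9a*. Levels of different genes are not set against each other, because probes differ in brightness.

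The mean log2 ratio was below 0 for all 8 subunits and for 7936 of 15159 named genes. The median was -0.11 for the subunits and -0.0046 for all named genes. The mean of *Scn9a* (-3.15e-04) lay above the latter median, and that of *Scn2b* (-0.02) was close to 0. The number of subunits below 0 on an array ran from 3 on array 4 to 7 on arrays 1 and 7. A ratio below 0 on all 8 arrays, on which *Scn4b* was chosen, was found for 1 of 8 subunits and for 1.78% of all named genes, and a ratio above 0 on all 8 for 0 subunits and 4.08% of named genes. *Scn3b* and *Scn8a* came just short of it, each with 1 array at 0.02. The study's methods counted genes with p under 0.01 as differential in the pathway analysis. The same value, without adjustment, was the threshold here. It was set on the largest p over 24 pairings of arrays, which is stricter than the p of a single pairing. Past it limma called 0.792% of named genes lower and 3.52% higher after RA. In either direction, 13.1% of named genes had an unadjusted p under 0.05 and 0% an adjusted p under 0.05. *Scn4b* was the only subunit with an unadjusted p under 0.01 in limma. Of the 8 subunits, 3 had an unadjusted p under 0.05 and 0 an adjusted p under 0.05. As the same contrast chose *Scn4b*, nothing is read from these counts. Over all named genes, 3 had a lower mean ratio than *Scn4b* (-0.51), namely *Ucn* (-0.75), *Cyp26b1* (-0.63) and *Tmem119* (-0.52), which were named after their values were seen.

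The remaining sodium channel genes showed no call. Of 7 listed, 5 had a probe, and limma called 0 of them (0 also at an unadjusted p under 0.05). *Scn4a*, the channel of skeletal muscle, had a mean log2 ratio of 0.03 (from -0.20 to 0.26, n = 8 arrays). *Scn10a* and *Scn11a*, channels of sensory neurones, had -0.09 and -0.04. *Scn4a* was well above background on 4 arrays in either channel, *Scn10a* on 4 for RA and 3 for vehicle, and *Scn11a* in both channels on all 8.

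Proteins that anchor or modify sodium channels, with potassium channels of the same axonal sites, formed a list of 22 genes, of which 17 had a probe. Limma called 1 of them lower and 0 higher, against 0.792% and 3.52% of all named genes. Of the 17 genes, 5 had an unadjusted p under 0.05 (13.1% of all named genes did) and 0 an adjusted p under 0.05. Their median log2 ratio was -0.07. The gene called was *Kcna2*, a potassium channel that flanks the nodes, which had a log2 ratio of -0.24 (SE 0.07) and was below 0 on 8 of 8 arrays. Its unadjusted p in limma was 0.00716 and its adjusted p 0.292. The call of *Kcna2* held in 4 of 16 fits that left out an array of each dye order, and the number of partner genes called ran from 0 to 2 over those fits. It was 0 in 10 of them, in which each array but array 5 was among those left out, and 2 without arrays 3 and 2 or 8 and 5. *Ank3*, which encodes ankyrin G, had a log2 ratio of -0.16 and *Fgf13*, an intracellular channel partner, one of -0.17, and neither passed the threshold. Those 2 genes were named after their values were seen.

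*Scn4b* is known from fast-spiking neurones, and a list of 8 genes of such neurones was set beside it. It held *Kcns3*, whose fall was already known from these data, and is no independent evidence. Limma called 4 of the 8 lower, against 0.792% of all named genes, and 0 higher, 6 had an unadjusted p under 0.05, against 13.1% of all named genes, none an adjusted p under 0.05 (0 of 8), and the median log2 ratio was -0.29. *Kcns3*, a modifier of potassium channels, fell by 0.41 on the log2 scale (SE 0.10, unadjusted p = 0.00373 in limma). *Vamp1*, a vesicle fusion protein of fast synapses, fell by 0.39 (SE 0.09, unadjusted p = 0.00268 in limma), and *Syt2*, their calcium sensor, fell by 0.33 (SE 0.07, unadjusted p = 0.00141 in limma). The adjusted p of these 3 genes lay between 0.242 and 0.268, and each was below 0 on 8 of 8 arrays. *Nefh* (-0.31) and *Pvalb* (-0.28), which encode a neurofilament and a calcium buffer, did not pass the threshold. The 2 remaining genes of the list, potassium channels, had mean log2 ratios of -0.0019 and 0.03, the first with 4 arrays on each side of 0. The count of 4 became 1 without arrays 6 and 7 and 2 without arrays 1 and 2, 1 and 5, or 1 and 7. *Syt2* held its call in 16 of 16 such fits and *Vamp1* in 15, against 9 for *Kcns3*.

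**Figure D3:**
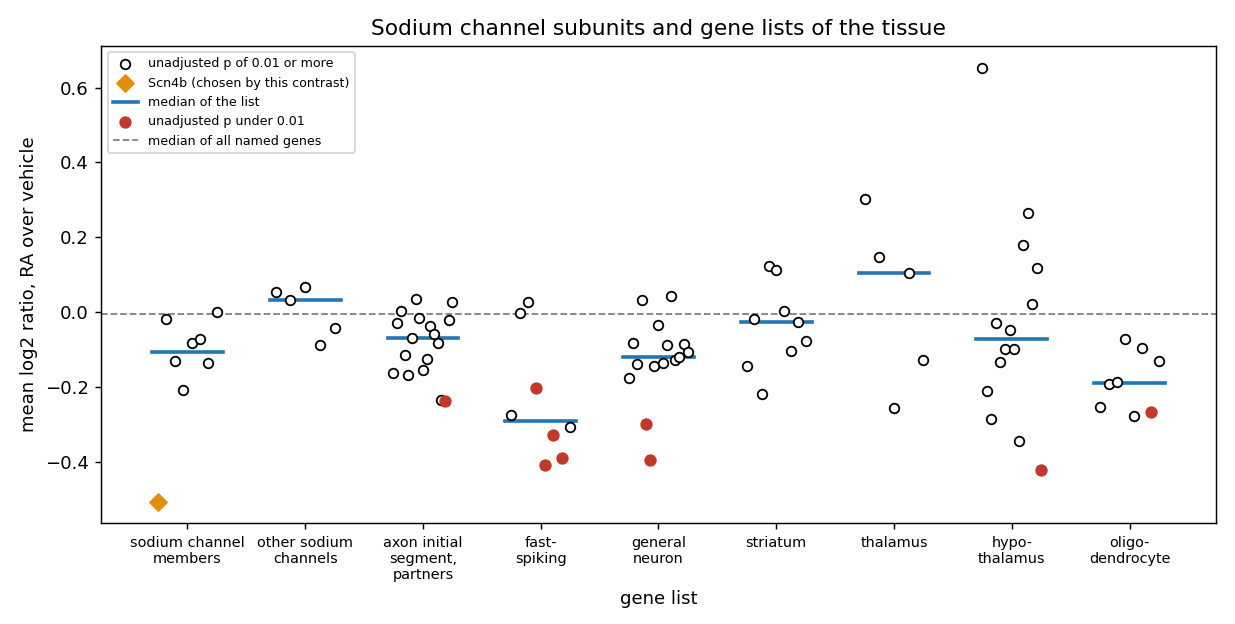
Mean log2 ratio of RA over vehicle (vertical axis, 8 arrays) of each gene in 9 gene lists (horizontal axis). Points are genes, filled where the unadjusted p in limma was under 0.01, the diamond is Scn4b, chosen by this contrast, blue bars are list medians and the dashed line is the median of all named genes (-0.0046). The list medians run from -0.29 for fast-spiking neurones to 0.10 for the thalamus, and the 8 sodium channel subunits have a median of -0.11.

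Of 15 general neurone genes, 5 had an unadjusted p under 0.05 in limma, against 13.1% of all named genes, and their median log2 ratio was -0.12. Limma called 2 of the 15 lower and 0 higher, against 0.792% and 3.52% of all named genes. The 2 were the neurofilament genes *Nefm* (-0.39, SE 0.10, unadjusted p = 0.00547 and adjusted p = 0.283 in limma) and *Nefl* (-0.30, SE 0.09, unadjusted p = 0.00982 and adjusted p = 0.306 in limma), and the count was 0 to 2 when an array of each dye order was left out. It was 0 without arrays 1 and 2, 1 and 7, 3 and 4, 3 and 7, 6 and 2, 6 and 4, or 6 and 7. Of 9 genes of striatal neurones, where *Scn4b* is abundant, limma called 0 (1 at an unadjusted p under 0.05), with a median of -0.03, and the defining gene *Drd1* was well above background on no array.

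Genes that mark neighbouring tissue differed between arrays, and *Scn4b* was nearest to 0 on 2 of the arrays concerned. The median log2 ratio of 5 thalamic genes was 0.71 on array 5 and 0.80 on array 8, with all 5 above 0, and between -0.23 and 0.17 on the other 6. *Slc17a6* is among them and is also a general neurone gene. On the same arrays the median of 14 hypothalamic neurone genes was -0.59 and -0.61, with 2 and 1 of the 14 above 0, against -0.02 to 0.24 on the others. The log2 of the summed level of the thalamic list ran from 13.78 to 15.02 in RA RNA and from 13.31 to 15.05 in vehicle RNA, and that of the hypothalamic list from 16.50 to 17.60 and from 16.57 to 17.75. All 14 hypothalamic genes were well above background on every array, so the defining genes of the labelled tissue were present. The mean log2 ratio of *Scn4b* was -0.66 without arrays 8 and 5. Choroid plexus genes had a median of -1.38 on array 6 and -1.57 on array 7, with 0 of 7 above 0, and 0.08 to 0.64 on the others. The log2 of their summed level ran from 10.59 to 17.11 in RA RNA and from 10.41 to 18.25 in vehicle RNA. Without arrays 6 and 7 the mean log2 ratio of *Scn4b* was -0.46. Arrays 5 and 8 are of opposite dye order, as are arrays 6 and 7. Either pair of arrays may be 1 comparison of RNA measured in both dye orders, which was not tested. A shift on 2 arrays is therefore not counted as a shift in 2 samples. The part of these tissue differences in the *Scn4b* values was not tested.

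Lists of other cell types in the block were read in the same fit, with 0 genes at an adjusted p under 0.05 in each. At the unadjusted threshold, 0.792% of all named genes were called lower and 3.52% higher. In limma, 0 of 5 thalamic (0 at an unadjusted p under 0.05) and 0 of 7 choroid plexus genes (0 likewise) passed the unadjusted threshold. Of hypothalamic neurone genes, 1 of 14 was lower, *Cartpt* (-0.42). Of 6 astrocyte genes, *Gfap* was higher (1.40) and *Gja1* lower (-0.22). Of 6 microglia genes, *Aif1* (0.88) and *Itgam* (0.87) were higher and *Tmem119* (-0.52) lower. Of 7 ependymal and tanycyte genes, *Vim* (0.62) and *Rarres2* (0.40) were higher. *Opalin* (-0.27) was lower of 8 oligodendrocyte genes, whose median log2 ratio was -0.19, and *Olig2* (-0.19) was lower of 5 precursor genes, whose median was -0.11. Several of these counts rested on few arrays. When an array of each dye order was left out, they ran from 0 to 4 for the choroid plexus (4 without arrays 6 and 7), 0 to 2 for hypothalamic neurones (0 without arrays 1 and 2) and ependyma (0 without arrays 3 and 2, 3 and 4, or 6 and 4), 1 to 3 for astrocytes, 1 to 4 for oligodendrocytes (4 without arrays 3 and 4), 0 to 1 for their precursors and 2 to 4 for microglia. *Gfap*, *Aif1*, *Itgam* and *Opalin* kept their calls in 16 of those 16 fits and *Cartpt* in 14, against 11 for *Vim*, 10 for *Tmem119*, 9 for *Rarres2*, 7 for *Olig2* and 4 for *Gja1*. The sodium channel subunits, general neurone genes and oligodendrocyte precursor genes had list medians between -0.12 and -0.11.

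Likeness to *Scn4b* was measured as the root mean square difference of log2 ratios over the 8 arrays, in which 0 means identical values. Among the subunits *Scn1a* was nearest at 0.40, followed by *Scn8a* at 0.50, *Scn3b* at 0.55, *Scn2a* at 0.57, *Scn3a* at 0.60, *Scn2b* at 0.69 and *Scn9a* at 0.75. *Scn1a* shared the low values of *Scn4b* on arrays 6 and 7 but not that on array 2. Of 9455 genes well above background on all arrays in both channels, the 5 nearest were *Nefm* (0.187), *Vamp1* (0.245), *Ddc* (0.266), *Aldh1a1* (0.270) and *Nkx6-1* (0.274). *Nefm* encodes a neurofilament, *Ddc* the enzyme that makes dopamine and serotonin from their precursors, *Aldh1a1* an enzyme that makes RA and *Nkx6-1* a transcription factor. All of them had a mean log2 ratio between -0.42 and -0.39, less low than that of *Scn4b*. *Nefm* followed *Scn4b* on arrays 5 and 8, at -0.04 and -0.11, and on arrays 1 and 2, at -0.82 and -0.67. *Ddc* was as low as *Scn4b* on arrays 1 and 2 (-0.96 and -1.04) but above 0 on arrays 3 and 4 (0.17 and 0.11). *Aldh1a1* did likewise, with -1.01 and -0.84 on arrays 1 and 2 and 0.06 and 0.14 on arrays 3 and 4.

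**Figure D4:**
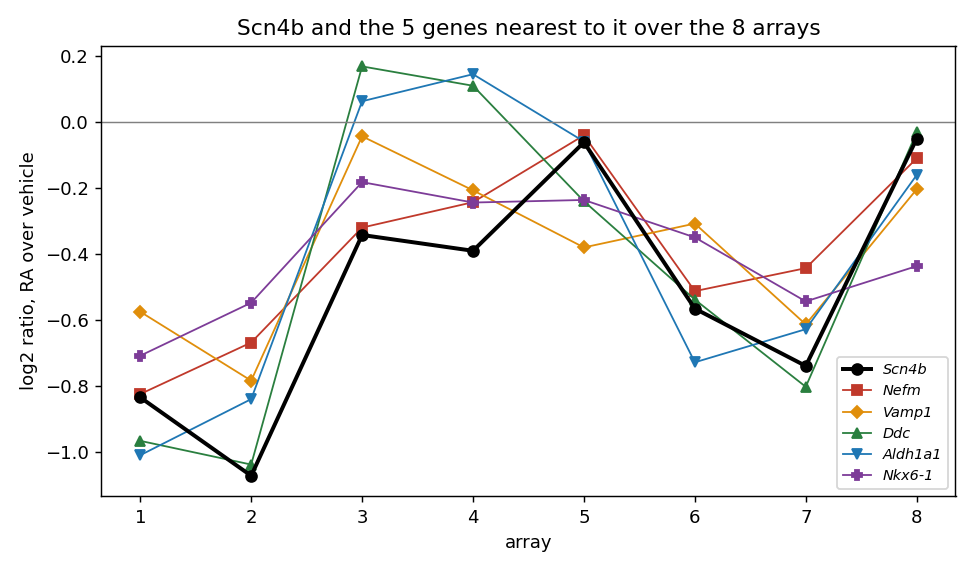
Log2 ratio of RA over vehicle (vertical axis) on arrays 1 to 8 (horizontal axis) for Scn4b and the 5 genes with the smallest root mean square difference from it. Lines join the points of a gene and imply no order of arrays. Scn4b, Nefm, Vamp1 and Nkx6-1 stay below 0 throughout, and Ddc and Aldh1a1 rise above 0 on arrays 3 and 4.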

How the data were processed

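RNA from the hypothalamus of rats given RA or vehicle was compared on 8 two-colour arrays. The authors deposited scanner output with the linear Cy3 and Cy5 intensity of each spot, Agilent's log10 ratio, and a table of normalised log2 ratios, which followed the turned ratios computed here (r from 0.985 to 1.00). The study's methods name limma, loess, the averaging of repeated probes and a block for dye-swaps, with no word on background correction. Here R 4.3.3 and limma 3.58.1 were used. Median signals were corrected by normexp (offset 50), control spots were dropped (58717 of 62976 spots remained), outlier spots were left out (0.913% to 2.42% per array), loess was applied within arrays, spots of 30367 probes were averaged and ratios were turned to RA over vehicle. Between 57.4% and 74.6% of probes were well above background for RA and 61.2% to 74.5% for vehicle. A probe counted as well above background where at least 0.5 of its spots were marked so. The number of arrays limits the precision.

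All 24 pairings of arrays of opposite dye order were fitted by limma on 4 pair means. The largest p was kept together with its SE, with Benjamini-Hochberg adjustment over all probes. A gene was named by its transcript accession (18006 probes, 15159 genes, of which 2607 had more than 1 probe) and represented by its brightest probe. The members, gene lists and tests were chosen with earlier results of these data known, and so was the rule for named genes. It took the 8 members, all other sodium channel genes, up to 3 genes past the threshold per list (all where 5 or fewer passed) and the 5 genes nearest to *Scn4b*. Values of some genes under this rule are not reported here. The test was checked on simulated arrays. Alternatives were the deposited values, Agilent's log ratio, plain or no background subtraction, scaling between arrays, bright probes only, outlier spots kept, each dye order, each slide row, independent arrays, a slide row block, the single pairing with the most calls, the mean over all probes of a gene, and 16 pairs of arrays left out.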

Additional observations from a re-analysis of the deposited data

How the results depend on the processing

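The log2 ratio of *Scn4b* was below 0 in 13 of 13 alternatives, from -0.66 to -0.35, and in 16 of 16 fits without an array of each dye order. *Scn4b* was chosen for a ratio below 0 on all 8 arrays. Its means over fewer arrays could therefore only lie below 0, and their sign is no support. *Scn3b*, *Scn1a* and *Scn8a* were also below 0 in 13 of 13, *Scn2a* in 12, *Scn3a* in 11 and *Scn9a* in 8 of 13, and *Scn2b* in 10 of 12, since it has no value with bright probes only. No member moved by more than its SD between arrays. Aquantile scaling leaves ratios unchanged by construction, and so does the use of bright probes only where a member keeps a value. The mean over all probes of a gene cannot change a member either, since each member had 1 probe. The number of probes called, 988, depended on how the arrays were taken and ran from 456 to 1110 without an array of each dye order. It was 237 with plain background subtraction, 330 with Agilent's log ratio, 2169 and 2320 with RA in Cy5 or in Cy3 only, 2485 with independent arrays, 3141 in the pairing with the most calls and 3112 with the slide row as a block. Of the partner genes, where 1 was called, 0 were with plain subtraction, Agilent's log ratio, RA in Cy3 only or slide row 2 only, and 5 with independent arrays, the pairing with the most calls or the slide row block, with 0 to 2 when arrays were left out. Fast-spiking genes called numbered 2 to 6 over 15 alternatives, and general neurone genes 0 to 4. The cause was not tested. The labels do not say which arrays share RNA, so the pairing rests on no label, and single pairings called 1081 to 3141 probes. Signal over background limits the ratio of *Scn2b*, which was well above background on 7 of 8 arrays for RA, more than those of the other 7 members.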
